A study of Homo sapiens with 4 samples.

Results

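The interleukin 1 family and its receptors were followed through 10 genes, taken by symbol from the 58219 genes of the table. They comprised the ligands IL1A, IL1B, IL18 and IL33, the receptor chains IL1R1, IL1RAP, IL18R1 and IL1RL1, the adaptor MYD88 and the kinase IRAK1, and each symbol matched 1 gene. WI-38 is a strain of normal human fibroblasts from embryonic lung, which cease to divide for good after irradiation. One group received an siRNA against exon 4 of G3BP1 (siG3BP1) and the other a scrambled siRNA (siCTL), both groups were irradiated with 10 Gy, and all cells were harvested at day 8. Total RNA was sequenced from 2 libraries of each group, named A and B. The comparison asks what the loss of G3BP1, an RNA-binding protein of stress granules, does to the RNA of senescent cells. It rests on a single siRNA and a single cell line, no unirradiated cells were analysed here, and the labels do not say whether A and B were separate cultures. The p-values thus reflect no more than the spread among these 4 libraries, which may be technical. In the main test that spread is pooled over genes of similar level. A gene whose own libraries differ widely therefore gets hardly a wider interval than one whose libraries lie close. In bulk RNA, fewer cells that express a gene and less RNA per cell cannot be told apart.

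Cytokines of the interleukin 1 family start inflammation at the surface of neighbouring cells and of the cells that make them. IL-1α and IL-1β both bind IL1R1, which then recruits IL1RAP, IL-18 binds IL18R1, and IL-33 binds IL1RL1 (also called ST2), which again needs IL1RAP. The joined receptors gather MyD88 through their intracellular domains, MyD88 assembles kinases of the IRAK family, and the signal runs through TRAF6 and TAK1 to NF-κB. In senescent fibroblasts, IL-1α is known as an upstream trigger of the secreted inflammatory factors IL-6 and IL-8.

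The genes lie at the following positions of GRCh38 as given in the deposited table. IL1R1 (chr2:102064544-102179874), IL1RL1 (chr2:102311502-102352037) and IL18R1 (chr2:102311529-102398775) are neighbours on the plus strand of chromosome 2. IL1A (chr2:112773915-112784590) and IL1B (chr2:112829751-112836903) lie further along the same chromosome on the minus strand. IL1RAP (chr3:190514051-190659750) and MYD88 (chr3:38138478-38143022) are on chromosome 3, IL18 (chr11:112143251-112164117) is on chromosome 11, IL33 (chr9:6215786-6257983) is on chromosome 9 and IRAK1 (chrX:154010500-154019980) is on the X chromosome. The annotated exons of IL18R1 and IL1RL1 share 95 bases on the same strand, which is 2.11% of the exonic length of IL18R1 and 1.65% of that of IL1RL1. How reads in that stretch were assigned is not given in the sources used here, so the values of these 2 genes are uncertain to that extent.

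The promoters of the 3 neighbouring receptor genes and of the adaptor and kinase are shown because IL1R1 and IL18R1 fell while IRAK1 rose, and because base composition recurs as a feature of the results below. Each is the window of 250 bases before to 50 bases after the RefSeq start site (GRCh38.p14) closest to the main transcript, on the strand of the gene. The windows are chr2:102142496-102142795 for IL1R1, chr2:102355546-102355845 for IL18R1, chr2:102311313-102311612 for IL1RL1, chr3:38138411-38138710 for MYD88 and chrX:154019853-154020152 for IRAK1. Capitals mark matches, on either strand, to TGANTCA (AP-1), to GAAA, any 2 bases and GAAA (the core of the interferon response element), or to TATAAA (the TATA box).
IL1R1: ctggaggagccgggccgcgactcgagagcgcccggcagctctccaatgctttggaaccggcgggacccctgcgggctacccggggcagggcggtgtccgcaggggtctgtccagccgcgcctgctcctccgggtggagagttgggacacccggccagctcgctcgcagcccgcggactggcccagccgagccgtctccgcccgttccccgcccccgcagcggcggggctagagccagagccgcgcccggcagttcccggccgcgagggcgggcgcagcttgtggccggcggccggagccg
IL18R1: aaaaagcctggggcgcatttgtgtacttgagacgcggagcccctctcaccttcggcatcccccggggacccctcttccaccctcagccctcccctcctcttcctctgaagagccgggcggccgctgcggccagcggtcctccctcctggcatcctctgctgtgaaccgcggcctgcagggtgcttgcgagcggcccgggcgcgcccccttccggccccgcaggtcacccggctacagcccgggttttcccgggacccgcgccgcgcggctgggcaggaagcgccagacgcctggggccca
IL1RL1: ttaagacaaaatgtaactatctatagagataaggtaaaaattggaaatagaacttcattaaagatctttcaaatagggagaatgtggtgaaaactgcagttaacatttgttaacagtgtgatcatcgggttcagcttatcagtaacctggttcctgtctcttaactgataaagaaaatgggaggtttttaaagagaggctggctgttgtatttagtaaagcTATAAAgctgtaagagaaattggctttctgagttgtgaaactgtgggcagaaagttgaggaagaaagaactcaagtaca
MYD88: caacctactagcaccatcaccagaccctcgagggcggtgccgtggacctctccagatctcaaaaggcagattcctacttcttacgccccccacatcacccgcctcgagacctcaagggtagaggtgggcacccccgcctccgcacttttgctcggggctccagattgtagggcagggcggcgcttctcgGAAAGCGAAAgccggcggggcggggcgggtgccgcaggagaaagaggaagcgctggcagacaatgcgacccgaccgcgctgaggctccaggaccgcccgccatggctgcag
IRAK1: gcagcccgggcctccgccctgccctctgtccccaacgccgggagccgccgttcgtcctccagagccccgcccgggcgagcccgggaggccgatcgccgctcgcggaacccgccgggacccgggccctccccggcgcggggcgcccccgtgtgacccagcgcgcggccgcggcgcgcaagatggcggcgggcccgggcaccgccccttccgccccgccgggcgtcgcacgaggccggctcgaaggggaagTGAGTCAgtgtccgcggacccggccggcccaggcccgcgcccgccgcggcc
The windows of IL1R1 and IL18R1 hold none of these motifs, nor a match to the κB consensus. The window of IL1RL1 holds a TATAAA 29 bases before its start site, that of MYD88 an interferon response element core 61 bases before it, and that of IRAK1 a TGANTCA overlapping it. IL1R1, IL18R1 and IL1RL1 have other RefSeq start sites, not printed, and some of those windows do hold such motifs. Which start sites these cells used was not tested. Among the 35116 promoters of the RefSeq set, 11.5% hold TATAAA, 3.57% the interferon response element core, 7.71% TGANTCA and 5.91% the κB consensus. The GC content of the window was 83.0% for IRAK1, 77.7% for IL1R1, 73.7% for IL1RAP (not printed), 72.3% for IL18R1 and 65.7% for MYD88, against a median of 58.7% over the set, whereas it was only 35.0% for IL1RL1. At these annotated start sites, the windows of the receptor genes that fell and of the kinase that rose were thus both GC-rich. The windows at other start sites were at 44.3%, 51.0% and 52.7% for IL1R1 and at 56.7% for IL18R1.

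G3BP1 itself was depleted in both libraries that received its siRNA. Its level was 201 and 271 normalized reads in siG3BP1 A and B, against 2675 and 2522 in siCTL A and B (log2 fold change -3.47, SE 0.34, adjusted p = 9.1e-21 by limma with Benjamini-Hochberg adjustment). A normalized read is a read counted in a gene, divided by the size factor of its library. The listed strands of the siRNAs are shown with bases 2 to 8 of siG3BP1 in capitals, the stretch through which an siRNA strand can also reach other transcripts.
siG3BP1: uCAACAUGgcgaaucuuggtg
siCTL: aagccaauucaucagcaaugg
The complement of that stretch, CATGTTG, occurs once in the main transcripts of IL18R1 and of IRAK1 and in none of the other 8, and it occurs in 28.5% of the 11795 tested genes with such a transcript. One of these 2 genes fell and the other rose. Matches were counted over the whole transcript, and whether the siRNA reached either gene through its match was not tested. The depth was 17169469 and 19233994 reads in genes for siG3BP1 A and B, and 16944404 and 22745000 for siCTL A and B. A library with no read of a gene may still hold up to 3 by counting error alone. Fibroblast markers were present, with 10 of 10 at 10 normalized reads or more in every library, but 4 of them were lower in siG3BP1 and 2 higher. The largest of these changes was in LUM, a proteoglycan of the matrix, with 46.2 and 318 normalized reads in siG3BP1 A and B, against 620.3 and 1262 in siCTL A and B (log2 fold change -2.86, adjusted p = 6.8e-14 by limma). PDGFRA, DCN and COL3A1 were also lower, and S100A4 and VIM higher, and their part in the changes below was not tested. By the count model DESeq2 neither LUM (adjusted p = 0.0794) nor COL3A1 (adjusted p = 0.0975) passed. By the count model edgeR both did (adjusted p = 4.96e-09 for LUM and 0.0225 for COL3A1). Of 13422 genes tested (mean of at least 10 normalized reads over the 4 libraries), 56.4% passed, 30.5% lower and 25.9% higher in siG3BP1.

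**Figure D1:**
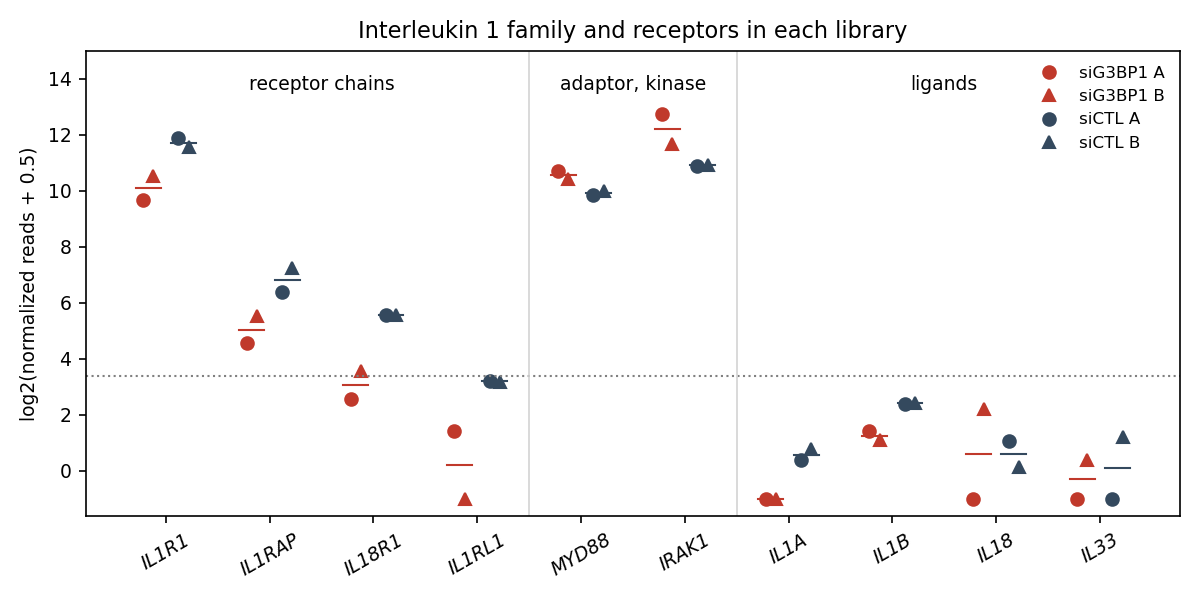
Level of each of the 10 genes in the 4 libraries, as log2(normalized reads + 0.5), with siG3BP1 in red left of siCTL in dark blue, library A as circles, library B as triangles and group means as short lines. The dotted line marks a mean of 10 normalized reads, the minimum for testing. Receptor chains sit lower in siG3BP1 and IRAK1 sits higher. The 4 ligands and the receptor chain IL1RL1 lie wholly below the line and were not tested.

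Of the 4 receptor chains, 3 fell after depletion of G3BP1. IL1R1, IL1RAP and IL18R1 were tested and were lower, whereas IL1RL1 was too low to test. IL1R1, the signaling receptor for IL-1α and IL-1β and the most abundant of the chains, was measured at 819 and 1464 normalized reads in siG3BP1 A and B, against 3796 and 3009 in siCTL A and B. Both siG3BP1 libraries thus lay below both siCTL libraries, with siG3BP1 A the lowest. This was 3.09-fold lower (log2 fold change -1.63, SE 0.33, 95% interval -2.28 to -0.97, adjusted p = 3.91e-05 by limma with Benjamini-Hochberg adjustment).

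IL1RAP, the accessory chain that the receptors for IL-1 and IL-33 share, was far less abundant. It had 23.1 and 45.9 normalized reads in siG3BP1 A and B, against 83.8 and 150.8 in siCTL A and B. The groups did not overlap, although the siCTL libraries themselves differed about as much as the siG3BP1 libraries did. The log2 fold change was -1.77 (SE 0.39, 95% interval -2.53 to -1.01, adjusted p = 1.02e-04 by limma with Benjamini-Hochberg adjustment), or 3.41-fold lower.

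IL18R1, the chain that binds IL-18, showed the largest decrease among the 5 tested genes. It had 5.50 and 11.5 normalized reads in siG3BP1 A and B, against 47.1 and 47.2 in siCTL A and B. These were only 5 and 14 reads in siG3BP1, against 59 and 77 reads in siCTL, so the gene reached the minimum for testing only through the siCTL libraries. The log2 fold change was -2.49 (SE 0.50, 95% interval -3.48 to -1.51, adjusted p = 2.86e-05 by limma with Benjamini-Hochberg adjustment), or 5.62-fold lower.

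IL1RL1, the receptor for IL-33, was close to the limit of detection. It had 2 reads in siG3BP1 A and none in siG3BP1 B, against 11 in siCTL A and 14 in siCTL B. Over each group this is 2 reads against 25, a ratio of 0.108 with a 95% counting interval of 0.0124 to 0.434. The interval lies below 1, but it covers counting error only and leaves out the spread between libraries. Without the minimum on low values limma called IL1RL1 lower as well (log2 fold change -2.98, adjusted p = 0.0025 with Benjamini-Hochberg adjustment over 27536 genes), where 25.2% of all genes passed.

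IL1RL1 and IL18R1 are also known from mast cells, leukocytes and endothelial cells. Of 6 mast cell and basophil markers, TPSAB1, HDC, MS4A2 and FCER1A were at 0 in every library, and the summed level was 131 and 204 in siG3BP1 A and B, against 311 and 235 in siCTL A and B, nearly all of it KIT. Endothelial markers, with CDH5 and CLDN5 at 0 among 7, summed to 1009 and 1472 in siG3BP1 against 4480 and 3019 in siCTL, most of which was TEK. TEK fell (log2 fold change -1.66, adjusted p = 2.86e-05 by limma), as the receptor chains did, whereas VWF, the other endothelial marker tested, was higher (log2 fold change 0.94, adjusted p = 0.0487 by limma). VWF did not pass by edgeR (adjusted p = 0.0514) or DESeq2 (adjusted p = 0.135), whereas TEK passed by both. Among leukocyte markers, LYZ (lysozyme) was higher, with 68.2 and 65.5 normalized reads in siG3BP1 A and B, against 23.2 and 23.9 in siCTL A and B (log2 fold change 1.49, adjusted p = 0.0021 by limma). CD14 did not pass (log2 fold change -0.72, adjusted p = 0.132 by limma), and PTPRC, which marks all leukocytes, had 1.10 and 0 normalized reads in siG3BP1 A and B, against 1.60 and 0 in siCTL A and B. The part of these markers in the result was not tested. Epithelial markers, with KRT5 and SFTPC at 0 among 8, summed to 2274 and 1390 in siG3BP1 against 968 and 1128 in siCTL. Nearly all of each sum was KRT8, KRT18 and KRT19. EPCAM had 1.10 and 0 normalized reads in siG3BP1 A and B, against 0.80 and 3.06 in siCTL A and B. CDH1 had 0 and 0.82 in siG3BP1 A and B, against 0.80 and 0 in siCTL A and B.

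Downstream of the receptors, IRAK1 rose. IRAK1, the kinase that MyD88 complexes activate, had 6827 and 3239 normalized reads in siG3BP1 A and B, against 1882 and 1954 in siCTL A and B. Both siG3BP1 libraries were higher, but they differed from each other by far more than the siCTL libraries did. The log2 fold change was 1.29 (SE 0.33, 95% interval 0.64 to 1.95, adjusted p = 7.82e-04 by limma with Benjamini-Hochberg adjustment), or 2.45-fold higher.

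MYD88, the adaptor that the receptors of all these ligands use, did not pass the test. It had 1653 and 1355 normalized reads in siG3BP1 A and B, against 920.4 and 1026 in siCTL A and B. The groups did not overlap, with both siG3BP1 libraries above both siCTL libraries. The log2 fold change was 0.62 (SE 0.34, 95% interval -0.04 to 1.28, adjusted p = 0.0984 by limma with Benjamini-Hochberg adjustment), and the interval includes no change.

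None of the 4 ligands was abundant enough to test. IL1A, which is known to start the inflammatory program of senescent cells, had no read in either siG3BP1 library, against 1 read in siCTL A and 2 in siCTL B. Both groups lie at or under the floor of 3 reads, so no fold change can be given at this depth. IL1B, the secreted form of IL-1 that caspase-1 matures, had 2 reads in each siG3BP1 library, against 6 in siCTL A and 8 in siCTL B. The ratio of IL1B was 0.387 (95% counting interval 0.0927 to 1.23), an interval that includes no difference.

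IL18, the ligand of IL18R1, had 0 and 5 reads in siG3BP1 A and B, against 2 in siCTL A and 1 in siCTL B. The groups overlapped, and the ratio of 2.26 had a 95% counting interval of 0.439 to 14.5. IL33, a nuclear cytokine released from damaged cells and the ligand of IL1RL1, had 0 and 1 reads in siG3BP1 A and B, against 0 and 3 in siCTL A and B. At 1 read against 3, its ratio of 0.451 (95% counting interval 0.0086 to 5.62) gives no direction. A difference in any ligand other than one outside these intervals was not detectable at this depth.

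Divided by exonic length, the order of the levels differed between the groups. Only length was taken into account here, and not the GC content of the exons, which the levels also followed (below). In siG3BP1 the mean level was 1180 normalized reads per kb of exon for IRAK1, 359 for MYD88 and 160 for IL1R1. In siCTL it was 450 for IRAK1, 232 for MYD88 and 478 for IL1R1. IL1R1 thus stood below both signaling genes in each siG3BP1 library, whereas in siCTL its 2 libraries (533 and 422 per kb) lay on both sides of those of IRAK1 (441 and 458 per kb) and above those of MYD88 (220 and 245 per kb).

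The other chains were expressed at a small share of that level. IL18R1 had a mean of 1.89 normalized reads per kb in siG3BP1 and 10.5 in siCTL, and IL1RAP had 3.08 in siG3BP1 and 10.5 in siCTL. In siCTL the libraries of IL18R1 (10.47 and 10.49 per kb) fell between those of IL1RAP (7.48 and 13.4 per kb), so these neighbours were not separated there. The remaining 5 genes lay at 0.786 per kb or below in siG3BP1 and at 1.61 per kb or below in siCTL.

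Of the 5 genes tested, 3 passed as lower and 1 as higher, beside 30.5% and 25.9% of all genes tested. The median log2 fold change of the 5 was -1.63 and that of all genes tested 0.04. Groups did not overlap for any of the 5, lower for 3 and higher for 2, beside 40.5% of all tested genes lower and 42.8% higher without overlap. Both count models gave the same 4 calls: by edgeR the adjusted p ranged between 2.21e-05 for IL18R1 and 0.0011 for IRAK1, and by DESeq2 between 6.26e-05 for IL1R1 and 0.0029 for IL1RAP. Of all genes, 55.5% passed by edgeR and 50.4% by DESeq2. Scaling every library to an equal sum shifted the median log2 fold change of all genes to -0.29 and left 87.2% of the calls lower, against 54.1% in the deposited scale, with 37.1% of genes passing. The same 4 genes passed on that scale, on the same side of that median, at -1.95 for IL1R1, -2.10 for IL1RAP, -2.80 for IL18R1 and 0.96 for IRAK1.

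The 2 siG3BP1 libraries were not equally far from siCTL. Against the siCTL mean, IL1R1 was at -2.04 on the log2 scale in siG3BP1 A and -1.21 in siG3BP1 B. IL18R1 was at -2.99 in A and -1.99 in B, IL1RAP at -2.26 in A and -1.28 in B, and IRAK1 at 1.83 in A and 0.76 in B. All 5 tested genes lay farther from siCTL in A than in B, as did 86.5% of all genes tested.

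The calls, more than the fold changes, depended on having both siCTL libraries. The log2 fold change of IL1R1 was -1.46 without siCTL A and -1.79 without siCTL B, beside -1.63 with all libraries. That of IL1RAP was -2.19 without siCTL A and -1.35 without siCTL B, beside -1.77 with all libraries. Without siCTL A none of the 5 genes passed, with adjusted p by limma between 0.0543 for IL1RAP and 0.58 for MYD88, and 3 of the 5 had an unadjusted p under 0.05. Without siCTL B none passed either, with adjusted p by limma between 0.203 for IL18R1 and 0.454 for MYD88, and 4 of the 5 had an unadjusted p under 0.05. In fits that leave out a library, the lone library is assumed to vary as the other group does. Of all genes tested only 0.946% (127) passed without siCTL A and 0.127% (17) without siCTL B. Without siG3BP1 A, IL1RAP no longer passed (adjusted p = 0.0554 by limma), while 42.7% of all genes did. Without siG3BP1 B all 5 passed, MYD88 among them (log2 fold change 0.77, adjusted p = 0.0071 by limma), as did 71.7% of all genes. All of these fits kept the direction of each of the 5 genes.

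**Figure D2:**
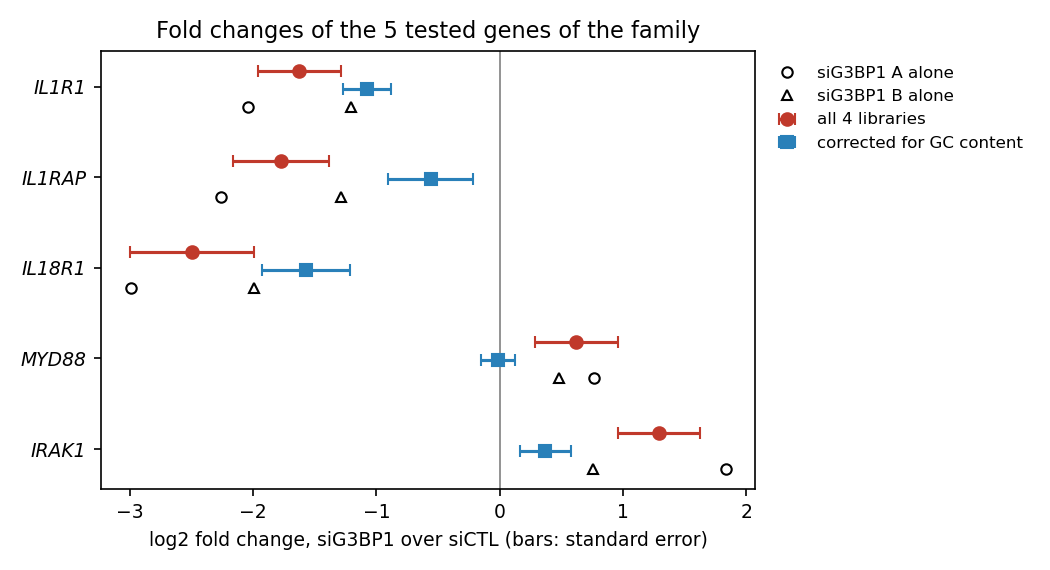
Log2 fold changes of the 5 tested genes, siG3BP1 over siCTL. Red circles are the fit to all 4 libraries and blue squares the same after correction of each library for exonic GC content (bars, standard error), and open circles and triangles are siG3BP1 A and siG3BP1 B against the siCTL mean. Without the correction 4 of 5 estimates pass the test and siG3BP1 A lies farther from zero than siG3BP1 B in each gene, and with it all 5 estimates lie closer to zero.

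Base composition of the transcripts moved with the result. The 3 receptor genes that fell had an exonic GC content of 44.8% (IL1R1), 42.1% (IL18R1) and 38.7% (IL1RAP), whereas MYD88 had 54.2% and IRAK1 62.8%. Across 13350 tested genes, which are not independent replicates, the log2 fold change followed exonic GC content with a Spearman's rho of 0.80. The deviation of a library from the gene mean had a rho with GC content of 0.77 and 0.62 in siG3BP1 A and B, and of -0.79 and -0.71 in siCTL A and B. In the lowest decile of genes by GC content, which holds IL1RAP, the median log2 fold change was -1.35 and 82.8% of genes passed as lower. In the highest decile, which holds IRAK1, the median was 0.99 and 68.9% passed as higher. The median was -1.07 in the decile of IL18R1, -0.75 in that of IL1R1 and 0.84 in that of MYD88.

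**Figure D3:**
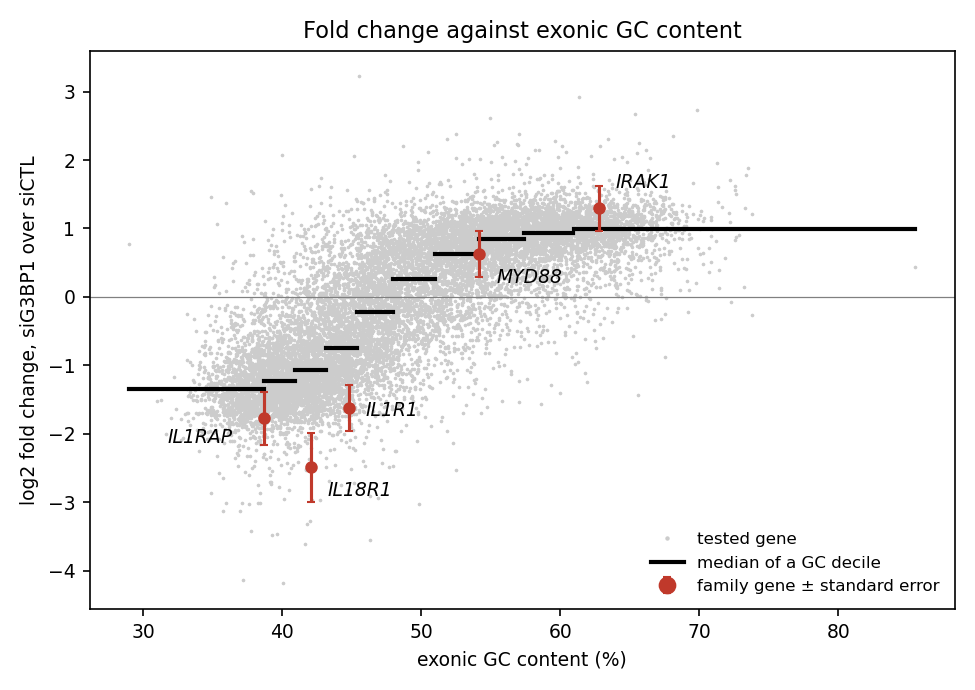
Log2 fold change, siG3BP1 over siCTL, against the GC content of the exons in percent. Each gray point is 1 of 13350 tested genes, black lines are the medians of the deciles of genes by GC content, and red points are the 5 tested genes of the family with their standard errors. IL18R1 lies at -2.49 where the median of its decile is -1.07, IL1R1 at -1.63 where it is -0.75, and MYD88 at 0.62 where it is 0.84.

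When the trend with GC content was taken out of each library, and the letter of the library was not in the model, none of the 5 genes passed. IL1R1 was then at a log2 fold change of -1.08 (adjusted p = 0.0628 by limma), IL18R1 at -1.57 (adjusted p = 0.0735 by limma) and IL1RAP at -0.56 (adjusted p = 0.325 by limma). IRAK1 was at 0.37 (adjusted p = 0.283 by limma) and MYD88 at -0.015, with its sign turned (adjusted p = 0.954 by limma). IL1R1 and IL18R1 had an unadjusted p under 0.05. With the letter as a block in the GC-corrected fit, IL1R1 and IL18R1 passed as lower again, beside 29.1% of all genes in either direction, and IL1RAP, MYD88 and IRAK1 did not. The block left the log2 fold changes unchanged. It moved the SE from 0.196 to 0.173 for IL1R1 and from 0.358 to 0.401 for IL18R1. The p-values of these 2 fits thus differ far more than their standard errors do. A limma p-value also depends on how far a fit pools spread over genes. The pass with the block is therefore not by itself stronger evidence than the fit without it. Without the block, of all genes, 0.00749% passed in that fit, which is G3BP1 alone of 13350, and 3775 had an unadjusted p under 0.05; the correction was fitted with limma only. IL1RL1, with 42.0% GC, lay within the range of the 3 genes that fell, and the untested ligands had between 34.4% (IL33) and 45.5% (IL1B). The source of the trend with GC content was not tested.

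Other genes of the family and pathway were counted from lists by role. Of 8 further ligands and antagonists only IL18BP, a soluble inhibitor of IL-18, was tested, and it had a log2 fold change of 0.05 (adjusted p = 0.924 by limma). IL1RN (the IL-1 receptor antagonist), IL36A, IL36B, IL36G, IL36RN, IL37 and IL1F10 were too low to test. Of 6 further receptor chains, IL1R2, IL18RAP and IL1RAPL2 were too low to test. IL18RAP is the accessory chain that the IL-18 receptor needs. SIGIRR, an inhibitory member of the receptor family, was higher, with 77.0 and 59.8 normalized reads in siG3BP1 A and B, against 27.9 and 35.5 in siCTL A and B (log2 fold change 1.09, SE 0.41, adjusted p = 0.0172 by limma). IL1RL2 (0.28) and IL1RAPL1 (-0.20) did not pass.

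All 17 genes of signaling below the receptor were tested, of which 7 were lower, 3 higher and 7 did not pass, beside 30.5% lower and 25.9% higher of all genes tested. The share that passed was thus near that of all genes, and the median log2 fold change was -0.67 beside 0.04. The kinases IRAK4, which acts directly on IRAK1, MAP3K7 (TAK1) and CHUK (IKKα) fell together with IRAK3, a relative of IRAK1 that restrains signaling. CHUK had 86.9 and 109 normalized reads in siG3BP1 A and B, against 334 and 314 in siCTL A and B (log2 fold change -1.73, adjusted p = 2.38e-05 by limma). MAP3K7 was at -1.48 (adjusted p = 1.82e-04 by limma), IRAK3 at -1.77 (adjusted p = 6.03e-04 by limma) and IRAK4 at -1.32 (adjusted p = 0.0010 by limma). The 3 that rose, named after their values were seen, were TOLLIP (1.17), an adaptor that holds IRAK1 in check, TAB1 (0.96), a partner of TAK1, and IKBKG (0.95), the regulatory subunit of the IκB kinase, whose reads are uncertain because a near-identical pseudogene copy exists. IRAK1 thus rose while its upstream kinase IRAK4 fell. Their exonic GC content differed, at 62.8% for IRAK1 and 42.1% for IRAK4. After the GC correction without the block neither passed, with IRAK1 at 0.37 (adjusted p = 0.283 by limma) and IRAK4 at -0.40 (adjusted p = 0.255 by limma).

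**Figure D4:**
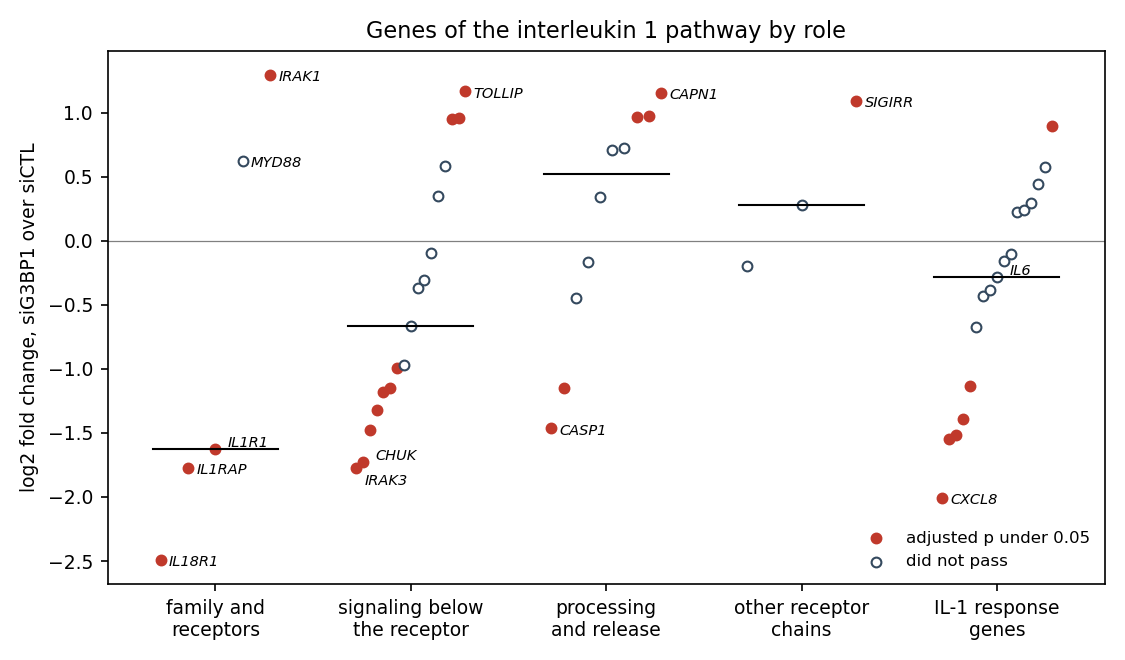
Log2 fold changes, siG3BP1 over siCTL, of the tested genes of the family and of 4 further lists by role, ordered within each list. Filled red points passed (adjusted p under 0.05, limma), open points did not, and the black line is the median of the list. The medians are -1.63 for the family and receptors, -0.67 for signaling, 0.52 for processing and release, 0.28 for other receptor chains and -0.28 for response genes.

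Of 12 genes of processing and release of the cytokines, 10 were tested, 2 were lower, 3 higher and 5 did not pass, with a median log2 fold change of 0.52. Of all genes tested 56.4% passed, so this share is near that of all genes. CASP1, the protease that matures IL-1β and IL-18, fell to 47.3 and 102 normalized reads in siG3BP1 A and B, against 152 and 246 in siCTL A and B (log2 fold change -1.46, adjusted p = 3.86e-04 by limma). CASP8, which can also cleave IL-1β, was at -1.15 (adjusted p = 0.0045 by limma). CAPN1, a calpain (a family of proteases that cleaves IL-1α), was at 1.15 (adjusted p = 0.0024 by limma), and NLRP1, an inflammasome sensor, at 0.97 (adjusted p = 0.0099 by limma).

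Of 22 genes that IL-1 is known to induce, 17 were tested, of which 5 were lower, 1 higher (SERPINB2, named after its values were seen) and 11 did not pass, with a median log2 fold change of -0.28. The share that was lower was close to the 30.5% of all genes tested, and the share that was higher was below the 25.9%. CXCL8, the neutrophil chemokine IL-8, fell to 28.6 and 35.2 normalized reads in siG3BP1 A and B, against 139 and 120 in siCTL A and B (log2 fold change -2.0, SE 0.38, adjusted p = 1.38e-05 by limma). IL6 had 63.8 and 140 normalized reads in siG3BP1 A and B, against 115 and 115 in siCTL A and B, and the groups overlapped (log2 fold change -0.28, adjusted p = 0.502 by limma). SOD2 (-1.51), a mitochondrial superoxide dismutase, PTGS2 (-1.55), the cyclooxygenase of prostaglandin synthesis, and TNFAIP3 (-1.13), a feedback inhibitor of NF-κB, were lower as well. CXCL8 and IL6 are named because the study also measured them by RT-qPCR. It reports that both were significantly lower in senescent WI-38 cells after loss of G3BP1. In these libraries CXCL8 passed as lower and IL6 did not pass, and the source of the difference for IL6 was not tested.

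These lists changed with the GC correction as well. After the correction without the block, none of the 17 signaling genes, the 10 of processing or the 16 response genes with a GC value passed by limma. An unadjusted p under 0.05 was found for 3 signaling, 4 processing and 6 response genes, beside 3775 of all 13350 genes. With the block, 2 signaling genes were higher, 1 processing gene was lower and 3 were higher, and 7 response genes were lower and 2 higher. Of all 13350 genes, 1924 were then lower and 1963 higher, or 29.1% in either direction. The median log2 fold change was then 0.05 for signaling, 0.15 for processing and -0.27 for response genes, beside 0.01 for all genes. For CXCL8, with 31.6% GC, the value was -0.77 (adjusted p = 0.121 by limma, or 0.015 with the block).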

How the data were processed

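Per the study's methods, the authors trimmed reads with Trimmomatic 0.35, aligned them with STAR to GRCh38 with a Gencode annotation, counted them per gene for stranded libraries and used DESeq2 1.22.1 for normalization. TopHat2 2.0.10 and mouse builds also appear in the submitters' processing notes, with no stated role. The values the authors deposited are a signal: each count was divided by its library's size factor. Undoing that division gave whole reads for 100% of the values, within 1.75e-09 reads, and edgeR 4.0.16 called 7443 genes and DESeq2 1.42.0 called 6767 genes on them. Deposited fold changes and p-values of the authors were not used.

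Genes with a mean of at least 10 were tested in R 4.3.3 with limma 3.58.1 on log2(value + 0.5). Its test was two-sided with a mean-variance trend, and p-values were adjusted by Benjamini-Hochberg over all genes tested at a threshold of 0.05. In the main fit the standard error of a gene followed that trend and not its own spread. ICAM1, with widely differing libraries, had an SE of 0.337, and MYD88, with closer ones, 0.336. A fold change on the log2(value + 0.5) scale understates the change of low genes. GC content and length came from the exons of a later Gencode release. For the GC correction, the difference between a library and the mean of each gene was fitted by loess (span 0.3) and the trend subtracted. Ratios of genes too low to test carry exact counting intervals at 95%. Promoter sequences are RefSeq's. The fits were tested on simulated counts that held no trend with GC content and no difference by letter. That test therefore does not cover these features of the data. Alternatives were other pseudocounts, filters, scalings, corrections for GC content and length, a replicate block, both count models and each library left out.

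Named genes were the 10 of the family, G3BP1, up to 4 genes of each further list with the smallest p, untested ligands and receptors, CXCL8 and IL6. Genes of the marker lists were named to check the cell type. TOLLIP, TAB1, IKBKG, ICAM1, MMP1 and SERPINB2 were named after their values were seen. A marker of the leukocyte list is not reported here. The genes of the family and all lists were chosen with earlier results of these data known.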

Additional observations from a re-analysis of the deposited data

How the results depend on the processing

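Depth limits the 4 ligands and IL1RL1, for which only counting intervals can be given, and 2 libraries per group limit everything else. Directions of IL1R1, IL1RAP, IL18R1 and IRAK1 were kept under every alternative run, and that of MYD88 under all but 2. MYD88 changed sign to -0.015 with the GC correction, alone and with the replicate block. The causes of these changes were not tested.

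Of the family, 3 genes were lower and 1 higher. With the GC correction these counts were 0 and 0, and with the GC correction and the replicate block 2 and 0 (IL1R1, adjusted p = 5.76e-08, and IL18R1, adjusted p = 9.12e-04, by limma). Adding the block to the GC correction changed the standard errors of these genes little, so the small p-values with it are not by themselves stronger evidence. With the replicate block alone the same 4 genes passed. Leaving out each library in turn gave 0 to 3 lower and 0 to 2 higher. A minimum mean of 50 left IL18R1 untested. The labels do not say what the letters A and B mark, and the study states pairing in general but not for these libraries, so the letter entered no other fit. Deviations of same-letter libraries from their group means were positively correlated, at 0.305 over genes, and at 0.477 after the GC correction.

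Of all genes, 4095 were lower and 3481 higher. Equal sums gave 636 higher. The GC correction gave 1 lower and 0 higher, and with the replicate block it gave 1924 lower and 1963 higher. The replicate block alone gave 3664 lower and 2380 higher. Leaving out each library gave 12 to 5050 lower and 5 to 4575 higher.

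The further receptor chain that was higher (1) became 0 with equal sums, with the GC correction and with DESeq2, and 0 to 1 without each library. With the GC correction and the replicate block the count was again 1, but SIGIRR was lost (log2 fold change 0.13, adjusted p = 0.777 by limma) and IL1RAPL1 passed instead (0.78, adjusted p = 0.0299 by limma). Signaling genes, 7 lower and 3 higher, became 0 lower with the GC correction, alone and with the replicate block, 0 higher with the GC correction, 2 higher with it and the block and 1 higher with equal sums, and were 0 to 8 lower and 0 to 4 higher without each library. Processing genes, 2 lower and 3 higher, became 0 lower and 0 higher with the GC correction, 1 lower and 3 higher with the GC correction and the replicate block, 1 higher with equal sums and 1 higher with the replicate block, and were 0 to 3 lower and 0 to 4 higher without each library. Response genes, 5 lower and 1 higher, became 0 lower with the GC correction, 7 lower with the GC correction and the replicate block and 3 lower with the length correction. The 1 higher became 0 with quantile normalization, equal sums, the replicate block, the GC correction, the length correction, edgeR and DESeq2, and 2 with the GC correction and the replicate block. Without each library response genes were 0 to 6 lower and 0 to 1 higher.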

Other observations

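In 3 genes that IL-1 is known to induce, the libraries differed by letter in both groups. ICAM1, an adhesion molecule for leukocytes, had 234 and 1480 normalized reads in siG3BP1 A and B, against 217 and 1166 in siCTL A and B. MMP1, a collagenase, had 3171 and 12983 normalized reads in siG3BP1 A and B, against 4885 and 14381 in siCTL A and B. SERPINB2, a plasminogen activator inhibitor, ran the other way, with 1219 and 547 normalized reads in siG3BP1 A and B, against 967 and 200 in siCTL A and B. SERPINB2 was also the response gene that was higher in siG3BP1 (log2 fold change 0.89, adjusted p = 0.0182 by limma), and it was higher within each letter. Its groups overlapped, however, and it passed neither by edgeR (adjusted p = 0.166) nor by DESeq2 (adjusted p = 0.655). In these 3 of 17 tested response genes, B differed from A by more than 1 on the log2 scale in the same direction in both groups, which held for 2.13% of all genes tested (286 of 13422) and for 0 of the 5 tested genes of the family. These genes were chosen after their values were seen, and what the letters mark is not given in the sources used here.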
